A study of Mus musculus with 11 samples.

Results

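Transcript levels of lymphoid-primed multipotent progenitors (LMPP) were compared with those of haematopoietic stem cells (HSC), both purified from the bone marrow of C57BL/6J mice. The comparison used 4 of the 11 arrays of the study, the 2 titled LMPP and the 2 titled HSC, and all 19938 genes with a probe set of their own. No genetic change or treatment is named in the labels for any array, and the sources used here state no age, sex or sort gates. Total RNA was labelled with biotin and hybridised to 1 Affymetrix array per sample. The other 7 arrays held common lymphoid progenitors (CLP, 2 arrays) from marrow and early thymic precursors (ETP, 2), double negative 2 (DN2, 1) and double negative 3 cells (DN3, 2) from thymus. Their spread entered the test. Replicates are numbered in the labels without a word on animals or pools, and a p-value may therefore measure no more than technical spread.

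HSC sit at the top of the blood hierarchy, renew themselves and give rise to every blood lineage. LMPP are multipotent progenitors that carry high levels of the receptor Flt3, have lost most of the capacity to form platelets and red cells, and still give rise to lymphoid, granulocytic, monocytic and dendritic cells. Transcripts of several lineages are known to be present at low level in stem and multipotent cells before any lineage is chosen, which is often called lineage priming. An array of sorted cells gives the mean over the cells of a sample. Fewer cells of a type and less RNA per cell therefore cannot be told apart in any value given here.

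Values are log2 intensities, so a difference of 1 is a 2-fold ratio of intensities, and a level is not comparable between genes. The 1015 olfactory receptor genes with a level on these arrays, which blood cells are not known to use, had medians of 4.22 and 4.11 in the LMPP arrays and 3.98 and 4.10 in the HSC arrays, and 95% of them lay below 6.02, 5.90, 5.71 and 5.97 in the same order. A level near 4 to 6 thus could not be told from background for an average probe set, and where the lower level of a gene lies in that range its fold is a lower bound. Differences are LMPP minus HSC, and "called" means an adjusted p under 0.05 in limma.

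Of the 19938 genes, 586 were called (2.94%), 246 higher in LMPP (1.23%) and 340 lower (1.71%). The change was at least 2-fold in 102 of the higher genes (0.512% of all genes) and 147 of the lower genes (0.737%), together 1.25% of all genes. The median difference over all genes was 0.03, and 57.4% of genes lay above 0. The arrays of the populations did not overlap in 4238 genes higher in LMPP (21.3%) and 3390 lower (17.0%), which is the background for any statement below that arrays did not overlap. The 2 arrays of a population were alike, with a Pearson correlation across genes of 0.991 for LMPP and 0.988 for HSC. Between replicates, 67 genes in LMPP and 146 in HSC differed more than 2-fold, and 110 of these 146 were higher in HSC replicate 1. Leaving out HSC replicate 1 gave 369 called genes, leaving out HSC replicate 2 gave 622, and the counts were 327 without the first LMPP array and 310 without the second one. A core of 201 genes, 85 higher and 116 lower, was called in the full fit and in each of these 4 fits. Where a call of a named gene was lost in 1 or more of them, the arrays and the highest adjusted p are given with it.

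**Figure D1:**
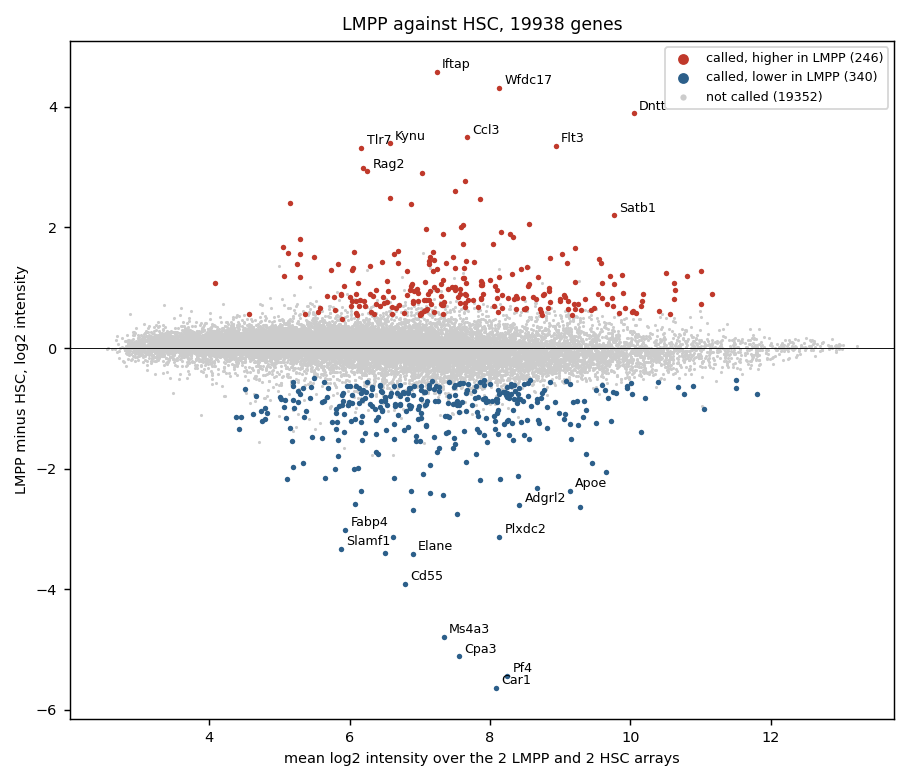
Difference between LMPP and HSC (vertical axis, log2 intensity) against the mean level over the 4 arrays (horizontal axis, log2 intensity) for 19938 genes. Red points are the 246 genes called higher and blue points the 340 called lower in LMPP. Among the labelled genes Iftap, Wfdc17 and Dntt lie at the top and Car1, Pf4 and Cpa3 at the bottom. Iftap is shown by probe set 10485370, and its probe set 10485361 did not differ.

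HSC replicate 1 stood apart in some genes of endothelial cells, which line the marrow sinusoids next to stem cells. Fabp4, a lipid carrier of capillary endothelium, was at 4.61 and 4.25 in the LMPP arrays, against 9.001 and 5.89 in the HSC arrays. The matrix protein gene Sparc was at 5.84 and 5.61 in the LMPP arrays, against 8.73 and 6.28 in the HSC arrays, and the mannose receptor gene Mrc1 at 4.55 and 4.45 in the LMPP arrays, against 6.93 and 4.84 in the HSC arrays. In each of these genes HSC replicate 1 was the highest array by more than 4-fold over HSC replicate 2. The adhesion gene Cdh5, which defines endothelium, was at 5.50 and 5.41 in the LMPP arrays, against 6.92 and 5.48 in the HSC arrays, and the scavenger receptor gene Stab2 at 6.15 and 6.07 in the LMPP arrays, against 7.58 and 6.25 in the HSC arrays. Over a list of 24 sinusoidal endothelial genes, which was chosen after the values were seen, the mean level was 6.00 and 5.95 in the LMPP arrays and 7.02 and 6.13 in the HSC arrays. Other genes of the list hardly differed between the HSC arrays. HSC replicate 1 minus HSC replicate 2 was 0.001 in Robo4, 0.022 in Plvap, -0.022 in Lyve1 and 0.097 in Emcn. Over all genes 1.71% were called lower and 1.23% higher. In the full fit 2 of the 24 were called lower (Fabp4 and Tek) and 1 higher (Egfl7); without HSC replicate 2 the lower count was 11. Without HSC replicate 1 the difference in Sparc, Cdh5 and Stab2 was -0.56, -0.03 and -0.14, and none of the 3 was called. Results below that rest on HSC replicate 1 are given with and without it. The call of Fabp4 was lost without either LMPP array (adjusted p up to 0.192). The difference in Fabp4 was -1.46 without HSC replicate 1, against -3.02 with all arrays. The difference in Fabp4 was -4.57 without HSC replicate 2, against -3.02 with all arrays.

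The labels were checked against known surface markers of the populations. Flt3, whose product marks LMPP, was at 10.48 and 10.75 in the LMPP arrays, against 7.38 and 7.13 in the HSC arrays, and Slamf1, whose product (CD150) marks HSC, was at 4.01 and 4.41 in the LMPP arrays, against 7.67 and 7.42 in the HSC arrays. The 4 arrays separated as labelled for both genes, which may themselves have served in the sort. Kit, the stem cell factor receptor gene, was at 9.13 and 9.33 in the LMPP arrays, against 9.83 and 9.10 in the HSC arrays, and Cd48, whose product is usually absent from the purest HSC gates, at 10.70 and 10.50 in the LMPP arrays, against 10.29 and 10.73 in the HSC arrays. These levels overlapped, and Cd48 was bright in HSC (95% interval of the difference -0.32 to 0.50). Procr, another HSC surface gene, was at 5.38 and 6.01 in the LMPP arrays, against 5.72 and 6.52 in the HSC arrays, within or close to the background range on 3 of 4 arrays.

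Several genes of antigen receptor assembly rose in LMPP. Of 16 measured genes on the list of receptor segment cutting and rejoining (V(D)J recombination), 6 were called higher (37.5%, against 1.23% of all genes) and 0 lower. One of the 6, Iftap, is on the list for its place beside the Rag genes and is not known to cut or rejoin DNA; of the other 15 genes 5 were called. The median of the 16 was 0.09 against 0.03 over all genes. Dntt, the polymerase that adds untemplated bases to receptor joints, was at 12.003 and 11.98 in the LMPP arrays, against 8.32 and 7.88 in the HSC arrays, a 14.8-fold difference (SE 0.150 log2, limma adjusted p = 7.93e-07). Rag2, a subunit of the recombinase that cuts receptor gene segments, was at 7.84 and 7.59 in the LMPP arrays, against 4.71 and 4.86 in the HSC arrays, 7.62-fold higher (adjusted p = 3.23e-06). Rag1, its catalytic partner, was at 7.35 and 7.43 in the LMPP arrays, against 5.83 and 6.11 in the HSC arrays, 2.67-fold higher (adjusted p = 0.000971). Each gene was higher in both LMPP arrays than in either HSC array. In HSC the Rag2 level was in the background range whereas Dntt was well above it.

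The joining enzymes gave 2 calls. Xrcc6 (Ku70), which binds broken DNA ends, was at 9.40 and 9.73 in the LMPP arrays, against 8.87 and 8.79 in the HSC arrays, a difference of 0.74 (adjusted p = 0.015), and Xrcc4, a ligase cofactor, differed by 0.64 (adjusted p = 0.0214). Xrcc5 (Ku80), the partner of Ku70, was at 8.78 and 9.04 in the LMPP arrays, against 9.40 and 9.25 in the HSC arrays, and Prkdc, the kinase they recruit, at 7.82 and 7.84 in the LMPP arrays, against 8.11 and 8.02 in the HSC arrays. Neither was called, with differences of -0.41 and -0.23. The call of Xrcc6 was lost without either HSC array or LMPP replicate 2 (adjusted p up to 0.112), and the call of Xrcc4 was lost without HSC replicate 1 or LMPP replicate 2 (adjusted p up to 0.141).

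The remaining call of that list, Iftap, depends on which of its probe sets is read. The probe set 10485370, which has the higher mean over all 11 arrays and stands in the gene table, was at 9.75 and 9.31 in the LMPP arrays, against 4.38 and 5.51 in the HSC arrays, a 24.0-fold difference (adjusted p = 2.41e-05). Its HSC levels lay in the background range, so the fold is a lower bound. The probe set 10485361 was at 9.23 and 9.18 in the LMPP arrays, against 9.26 and 9.33 in the HSC arrays, a difference of -0.09 (adjusted p over all probe sets 0.868). The annotation ties the RefSeq transcript of Iftap to the probe set that did not differ and only a GenBank transcript to the one that did. Iftap overlaps Rag2 on chromosome 2 in RefSeq but not Rag1. Ighm, the heavy chain gene of IgM, also gave unlike answers. Its probe set 10403069 was at 5.22 and 6.18 in the LMPP arrays, against 3.30 and 2.96 in the HSC arrays (adjusted p over all probe sets 0.00254), while the brightest of its 3 probe sets, used in the gene table, was at 6.27 and 6.18 in the LMPP arrays, against 5.99 and 6.33 in the HSC arrays and was not called.

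**Figure D2:**
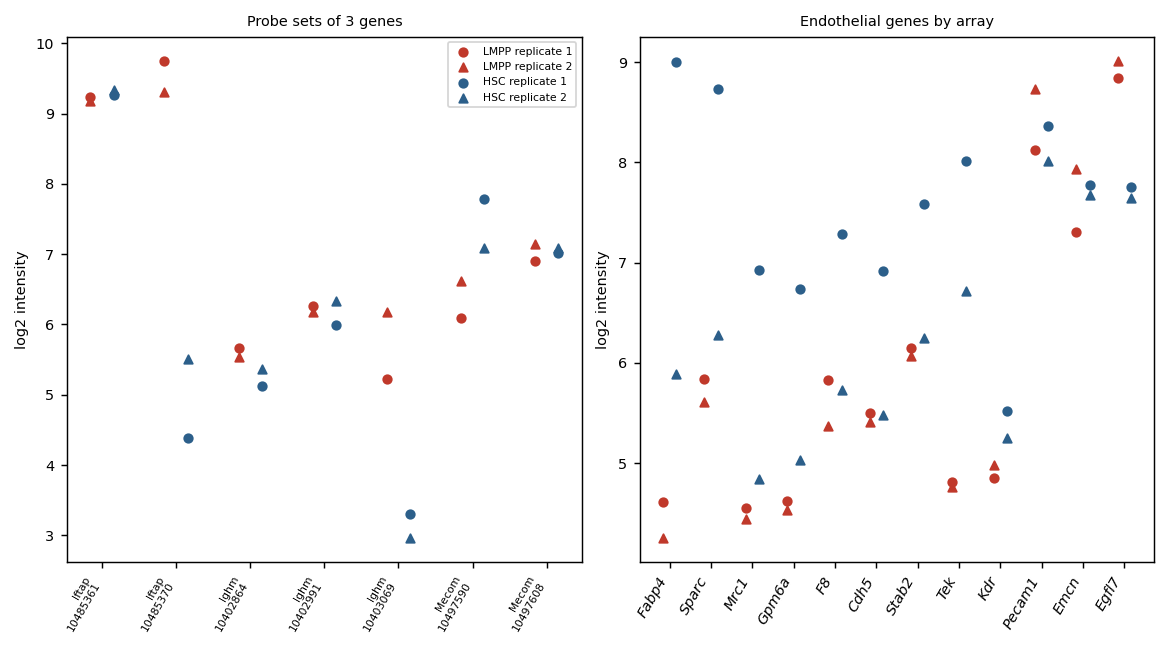
Log2 intensity (vertical axes) in each array, red for LMPP and blue for HSC, circles for replicate 1 and triangles for replicate 2. The left panel shows each probe set of Iftap, Ighm and Mecom, where probe set 10485370 separates the populations and 10485361 does not; the right panel shows 12 endothelial genes, where HSC replicate 1 lies highest in Fabp4, Sparc, Mrc1, Gpm6a, F8, Cdh5, Stab2, Tek and Kdr.

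The promoters of 6 genes with great differences are shown, Pf4, Gp5, Icam4 and Cpa3 among those that fell and Dntt and Rag2 among those that rose. They are the 250 bases before the RefSeq start, from build GRCm38.p6, written 5′ to 3′ on the gene's strand. GATA factors, of which Gata1 and Gata2 drive platelet, red cell and mast cell genes, bind the letters AGATAA or AGATAG. The letters TGATAA or TGATAG were searched too. Matches on either strand are in capitals.
Pf4, chr5:90772185-90772434, plus strand: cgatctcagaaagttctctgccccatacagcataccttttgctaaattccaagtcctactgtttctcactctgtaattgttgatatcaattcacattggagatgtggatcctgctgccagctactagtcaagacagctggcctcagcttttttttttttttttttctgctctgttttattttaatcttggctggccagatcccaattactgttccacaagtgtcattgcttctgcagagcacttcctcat
Gp5, chr16:30310782-30311031, minus strand: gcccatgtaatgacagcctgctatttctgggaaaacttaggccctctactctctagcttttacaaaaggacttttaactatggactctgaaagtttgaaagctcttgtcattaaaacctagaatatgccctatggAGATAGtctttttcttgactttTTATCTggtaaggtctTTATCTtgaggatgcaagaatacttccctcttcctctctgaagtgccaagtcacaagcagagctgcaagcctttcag
Icam4, chr9:21029182-21029431, plus strand: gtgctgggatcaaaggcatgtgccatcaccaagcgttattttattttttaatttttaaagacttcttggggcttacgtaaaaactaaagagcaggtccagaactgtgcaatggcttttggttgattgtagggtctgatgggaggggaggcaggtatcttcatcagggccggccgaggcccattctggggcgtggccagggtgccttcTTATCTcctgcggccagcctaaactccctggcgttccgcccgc
Cpa3, chr3:20242182-20242431, minus strand: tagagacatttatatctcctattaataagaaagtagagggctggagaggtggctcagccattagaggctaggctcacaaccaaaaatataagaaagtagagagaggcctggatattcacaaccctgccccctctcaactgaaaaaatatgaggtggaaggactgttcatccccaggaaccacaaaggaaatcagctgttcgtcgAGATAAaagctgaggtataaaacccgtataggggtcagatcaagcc
Dntt, chr19:41029025-41029274, plus strand: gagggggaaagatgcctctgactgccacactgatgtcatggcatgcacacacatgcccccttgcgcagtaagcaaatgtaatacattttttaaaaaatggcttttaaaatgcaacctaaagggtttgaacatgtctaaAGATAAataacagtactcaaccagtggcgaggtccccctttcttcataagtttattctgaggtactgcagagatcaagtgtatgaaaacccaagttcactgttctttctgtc
Rag2, chr2:101624462-101624711, plus strand: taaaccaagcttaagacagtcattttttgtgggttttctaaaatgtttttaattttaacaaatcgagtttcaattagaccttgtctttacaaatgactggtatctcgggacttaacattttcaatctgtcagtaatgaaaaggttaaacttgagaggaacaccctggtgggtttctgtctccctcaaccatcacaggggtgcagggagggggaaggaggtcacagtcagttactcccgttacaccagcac
The match in Icam4 begins 43 bases before the start, that in Cpa3 46, that in Dntt 112, and the 3 in Gp5 begin 115, 93 and 77 bases before it. Pf4 and Rag2 hold none in this window. A match occurred in 22.1% of the 271 genes called lower that have a promoter in the table and in 21.4% of the 196 called higher, against 23.0% of 15614 genes tested. It occurred in 3 of 13 promoters of megakaryocyte genes called lower and 4 of 7 of erythroid genes called lower. The letters CAGGTG or CAGCTG, to which E proteins bind, occurred in 4 of 16 promoters of lymphoid priming genes called higher (25.0%), against 26.6% of genes tested. A match is a description of letters, not a binding site.

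Lymphoid priming genes, a list of 38 measured genes known to be active in cells with lymphoid potential, held the most calls on the higher side. Of the 38, 21 were called higher (55.3%, against 1.23% of all genes) and 0 lower. All 38 differences were positive, and the median difference was 0.72. With 1 of the 4 arrays left out the count lay between 14 and 16. Earlier results of these data were known when the list was written, so its count is not independent evidence of its direction.

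Among the receptors, Il7r, the interleukin 7 receptor chain that lymphoid cells need to survive, was at 8.33 and 8.23 in the LMPP arrays, against 6.29 and 6.47 in the HSC arrays, 3.73-fold higher (adjusted p = 0.000192). Ccr9, a chemokine receptor that guides progenitors to the thymus, was at 6.85 and 6.86 in the LMPP arrays, against 5.41 and 5.12 in the HSC arrays, 3.01-fold higher (adjusted p = 0.00214). Btla, an inhibitory receptor of lymphocytes, was at 6.70 and 6.36 in the LMPP arrays, against 4.93 and 5.35 in the HSC arrays, 2.62-fold higher (adjusted p = 0.00146). In all 3 genes both LMPP arrays exceeded both HSC arrays, and the HSC levels of Ccr9 and Btla lay in the background range. The surface proteins Cd52 and Cd53 rose 2.95-fold and 2.29-fold (adjusted p = 0.00126 and 0.000908).

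Among the nuclear factors, Satb1, a chromatin organiser that lymphoid progenitors need, was at 10.81 and 10.93 in the LMPP arrays, against 8.99 and 8.34 in the HSC arrays, 4.59-fold higher (adjusted p = 0.000115). Tcf4, an E protein of lymphoid and plasmacytoid dendritic cells, was at 9.42 and 9.56 in the LMPP arrays, against 8.77 and 8.45 in the HSC arrays, a difference of 0.88 (adjusted p = 0.00471). Both calls stood in each of the 4 fits that left out an array. Sox4, Ets1 and Foxp1, which serve early B and T cell development, rose by 0.68, 0.66 and 0.59 on the log2 scale. Ikzf1 (Ikaros), required for lymphoid fate, was at 9.25 and 9.49 in the LMPP arrays, against 8.95 and 8.57 in the HSC arrays, a difference of 0.61 that missed the threshold (adjusted p = 0.089). Notch1, the receptor for the T cell fate signal, differed by 0.70 (adjusted p = 0.0893), and Ebf1, the B cell determinant, by 0.73 (adjusted p = 0.146). The call of Sox4 was lost without HSC replicate 1 or either LMPP array (adjusted p up to 0.237), and the call of Ets1 was lost without HSC replicate 2 or either LMPP array (adjusted p up to 0.238). The call of Foxp1 was lost without any of the 4 arrays (adjusted p up to 0.167).

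Genes of committed lymphocytes gave 1 call on each list. Of 23 measured B lineage genes Cd72, a B cell coreceptor, was called higher (4.35%, against 1.23% of all genes). Cd72 was at 8.44 and 8.68 in the LMPP arrays, against 7.11 and 7.76 in the HSC arrays (limma adjusted p = 0.0108). Of the 23 differences 21 were positive, with 5 higher and 0 lower at an unadjusted p under 0.05. Of 24 T lineage genes 0 were called higher and 1 lower (4.17%, against 1.71% of all genes). At an unadjusted p under 0.05, 4 T lineage genes were higher and 4 lower. The gene that fell was Thy1, which both stem cells and T cells carry (7.56 and 7.73 in the LMPP arrays, against 8.70 and 8.40 in the HSC arrays, adjusted p = 0.00489). Cd3e, a T cell receptor subunit, was at 6.32 and 5.93 in the LMPP arrays, against 5.88 and 6.24 in the HSC arrays, and Pax5, the factor of B cell commitment, at 6.26 and 5.92 in the LMPP arrays, against 6.10 and 6.04 in the HSC arrays. Vpreb1, part of the pre-B cell receptor, was bright in 3 arrays and low in HSC replicate 1, at 8.99 and 9.15 in the LMPP arrays, against 7.29 and 9.21 in the HSC arrays. The call of Cd72 was lost without LMPP replicate 2 (adjusted p up to 0.0908).

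**Figure D3:**
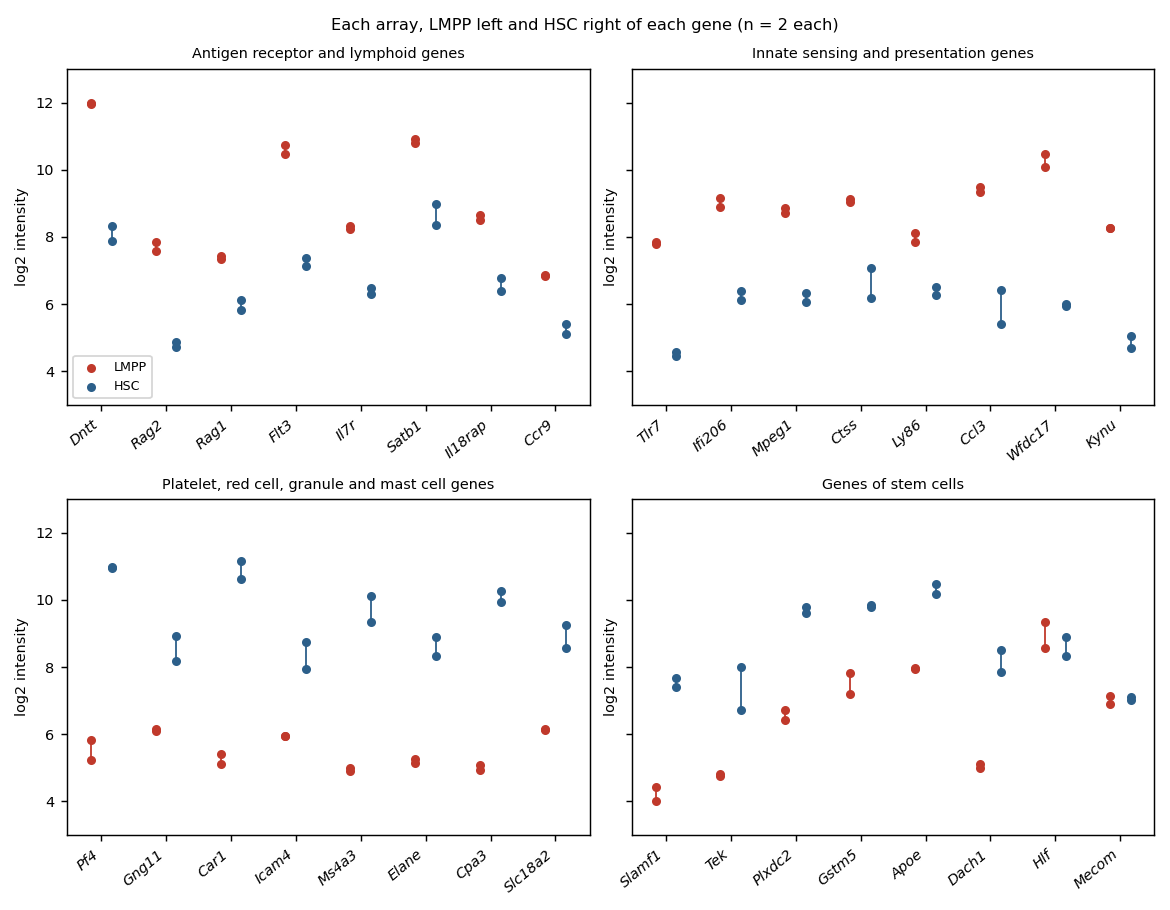
Log2 intensity (vertical axes) of 32 genes in each of the 4 arrays, LMPP in red left of HSC in blue, with a line joining the 2 arrays of a population. The populations separate for all genes shown except Hlf and Mecom, and the HSC arrays lie apart from each other in Tek, Ctss and Ccl3.

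Of 27 measured dendritic cell and MHC class II genes, 7 were called higher (25.9%, against 1.23% of all genes) and 0 lower. Ctss, a protease that trims the class II invariant chain, was at 9.14 and 9.06 in the LMPP arrays, against 6.17 and 7.07 in the HSC arrays, 5.57-fold higher (adjusted p = 0.000292). Mpeg1 (perforin-2), a pore protein of phagocytes, was at 8.86 and 8.73 in the LMPP arrays, against 6.05 and 6.34 in the HSC arrays, 6.06-fold higher (adjusted p = 2.21e-06). Cd86, a costimulatory ligand, was at 6.55 and 6.82 in the LMPP arrays, against 5.46 and 5.32 in the HSC arrays, 2.45-fold higher (adjusted p = 0.00837). The other 4 were Flt3, Ccr9, Tcf4 and Itgax. The class II genes proper were not called: H2-Aa was at 6.03 and 6.25 in the LMPP arrays, against 6.16 and 6.02 in the HSC arrays and Cd74, the invariant chain, at 5.55 and 5.48 in the LMPP arrays, against 5.05 and 5.37 in the HSC arrays, both in or close to the background range. H2-Ob, a chain of the class II peptide-loading regulator, did rise, at 9.15 and 9.11 in the LMPP arrays, against 7.21 and 7.19 in the HSC arrays (adjusted p = 2.77e-05); it was chosen after its values were seen. The call of Cd86 was lost without LMPP replicate 2 (adjusted p up to 0.0757), and the call of Itgax was lost without any of the 4 arrays (adjusted p up to 0.182).

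The nucleic acid sensor Tlr7 was at 7.80 and 7.85 in the LMPP arrays, against 4.45 and 4.56 in the HSC arrays, 9.97-fold higher (adjusted p = 0.00019), and its HSC level lay in the background range. Of 14 genes on a list of Toll-like receptors and adaptors 2 were higher (14.3%, against 1.23% of all genes) and 1 lower (7.14%, against 1.71%). Tlr7 was the only receptor of the family called. The other higher gene was Sting1, the adaptor of cytosolic DNA sensing and not of Toll-like receptors (2.12-fold, adjusted p = 0.00514). The lower gene was Irak3, an inhibitor of Toll-like receptor signalling (6.16 and 6.60 in the LMPP arrays, against 8.25 and 7.97 in the HSC arrays, adjusted p = 0.000554). Tlr9 and Tlr4 were not called, with differences of 0.41 and 0.17. Of 10 interferon-inducible p200 genes, whose products bind DNA, 4 were higher and 0 lower. Ifi206 was at 8.91 and 9.15 in the LMPP arrays, against 6.13 and 6.39 in the HSC arrays, 6.83-fold higher (adjusted p = 0.00019); Ifi214, Ifi209 and Ifi203 rose by 1.17, 1.16 and 0.72 on the log2 scale. The count of 4 became 1 when HSC replicate 1 or LMPP replicate 1 was left out, and without LMPP replicate 2 only Ifi206 and Ifi214 of the 4 were still called. The p200 genes are closely related copies, so a probe set may read more than 1 of them. The lists of Toll-like receptors and p200 genes were drawn up after the values were seen. In the wider list of 42 interferon-stimulated genes 2 were higher (Ifi27l2a and Rtp4) and 1 lower (Ifih1), shares of 4.76% and 2.38% against 1.23% and 1.71% of all genes. The call of Ifi214 was lost without HSC replicate 1 or LMPP replicate 1 (adjusted p up to 0.165), and the calls of Ifi209, Ifi203 and Rtp4 were lost without HSC replicate 1 or either LMPP array (adjusted p up to 0.0979). The call of Ifih1 was lost without LMPP replicate 1 (adjusted p up to 0.0517).

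Wfdc17, a small protease inhibitor of myeloid cells, was at 10.49 and 10.07 in the LMPP arrays, against 5.94 and 5.99 in the HSC arrays, 19.9-fold higher (adjusted p = 7.93e-07), and its chromosome 11 relative Wfdc18 was at 8.06 and 7.57 in the LMPP arrays, against 5.18 and 5.49 in the HSC arrays, 5.58-fold higher (adjusted p = 0.00038). Ccl3, a chemokine of activated leukocytes, was at 9.35 and 9.49 in the LMPP arrays, against 5.42 and 6.43 in the HSC arrays, 11.3-fold higher (adjusted p = 0.00126). The HSC arrays differed from each other in Ccl3 but both lay below the LMPP arrays. A further 3 genes chosen after their values were seen rose: Ccl4, another chemokine gene that overlaps Ccl3 in RefSeq, by 1.08, Il12a, a subunit of interleukin 12, by 1.90, and Tnf by 0.89 on the log2 scale. Kynu, kynureninase of tryptophan breakdown, was at 8.27 and 8.26 in the LMPP arrays, against 4.69 and 5.06 in the HSC arrays, 10.5-fold higher (adjusted p = 1.81e-06). Sema3d, a secreted semaphorin known from axon guidance, was at 7.47 and 7.91 in the LMPP arrays, against 4.49 and 4.90 in the HSC arrays, 7.95-fold higher (adjusted p = 7.13e-06). Cmah, the enzyme that makes the sialic acid Neu5Gc, was at 8.56 and 8.40 in the LMPP arrays, against 6.08 and 5.07 in the HSC arrays, 7.48-fold higher (adjusted p = 0.000213). The call of Tnf was lost without HSC replicate 1 or LMPP replicate 1 (adjusted p up to 0.0926).

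Many platelet genes fell. Of 33 measured megakaryocyte and platelet genes 18 were called lower (54.5%, against 1.71% of all genes) and 0 higher, with a median of -0.78. This list too was written with earlier results of these data known, so its share is not independent evidence of its direction. Pf4, the platelet granule chemokine, was at 5.23 and 5.82 in the LMPP arrays, against 10.95 and 10.98 in the HSC arrays, 43.2-fold lower (adjusted p = 2.21e-07). Gng11, a G protein subunit abundant in platelets, was at 6.14 and 6.10 in the LMPP arrays, against 8.93 and 8.17 in the HSC arrays, 5.39-fold lower (adjusted p = 0.000172). Gp5, a subunit of the von Willebrand factor receptor, was at 5.99 and 6.001 in the LMPP arrays, against 8.78 and 7.40 in the HSC arrays, 4.26-fold lower (adjusted p = 0.00803). Pf4 was in the background range in LMPP and bright in HSC, while Gp5 was more than 2-fold higher in HSC replicate 1 than in HSC replicate 2. Without HSC replicate 1 the difference in Gp5 was -1.40 (adjusted p = 0.00839). Trpc6, a calcium channel, Cavin2, a caveolar coat protein, and Mmrn1, multimerin, fell by 1.99, 1.90 and 1.79 on the log2 scale. Leaving out HSC replicate 1 turned the count of 18 into 10, HSC replicate 2 into 17, LMPP replicate 1 into 7 and LMPP replicate 2 into 8. The call of Gp5 was lost without either LMPP array (adjusted p up to 0.0553).

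Some defining platelet markers were not called. Vwf, von Willebrand factor, was at 5.92 and 6.001 in the LMPP arrays, against 6.40 and 6.15 in the HSC arrays, and Itgb3, the platelet integrin chain, at 5.89 and 5.70 in the LMPP arrays, against 5.93 and 5.74 in the HSC arrays. Ppbp, another platelet chemokine, was called lower but lay in the background range, at 4.24 and 4.28 in the LMPP arrays, against 5.20 and 4.92 in the HSC arrays. The mean over the 33 genes was 6.55 and 6.55 in the LMPP arrays, against 7.69 and 7.34 in the HSC arrays. Whether a few platelet-forming cells in the HSC samples have a part in it was not tested. Among the regulators Gfi1b and Nfe2, factors of megakaryocytes and red cells, fell by 0.90 and 0.87 on the log2 scale. Gata1, their master factor, was at 6.11 and 5.93 in the LMPP arrays, against 7.72 and 6.41 in the HSC arrays and was not called (adjusted p = 0.131); without HSC replicate 1 its difference was -0.39. The call of Gfi1b was lost without HSC replicate 1 or either LMPP array (adjusted p up to 0.0975), and the call of Nfe2 was lost without any of the 4 arrays (adjusted p up to 0.257).

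Of 36 measured erythroid genes, 11 were called lower (30.6%, against 1.71% of all genes) and 0 higher, with a median of -0.40. The 11 include Muc13, Mt1 and Mt2, which are not particular to red cells, and the list was written with earlier results of these data known. Car1, a carbonic anhydrase of red cells, was at 5.42 and 5.11 in the LMPP arrays, against 11.17 and 10.63 in the HSC arrays, 49.7-fold lower (adjusted p = 3.23e-06), a lower bound since both LMPP levels lay in the background range. Muc13, a membrane mucin, was at 7.57 and 8.36 in the LMPP arrays, against 10.81 and 10.39 in the HSC arrays, 6.23-fold lower (adjusted p = 0.000437). It was also at a mean of 8.07 in ETP and at 9.35 in the DN2 array. Icam4, a red cell adhesion antigen, was at 5.94 and 5.96 in the LMPP arrays, against 8.76 and 7.95 in the HSC arrays, 5.31-fold lower (adjusted p = 0.000156). The LMPP arrays agreed closely in Icam4 and both lay at the top of the background range. The metallothioneins Mt1 and Mt2, which bind zinc and are not restricted to red cells, fell 2.91-fold and 4.02-fold (adjusted p = 0.000406 and 2.39e-05). Rhag, the Rh-associated glycoprotein, was at 3.78 and 3.73 in the LMPP arrays, against 5.50 and 4.69 in the HSC arrays (adjusted p = 0.00672). Other genes of the list were not called: Alas2, of haem synthesis, was at 6.45 and 6.30 in the LMPP arrays, against 6.20 and 6.43 in the HSC arrays, Slc4a1, the band 3 anion exchanger, at 6.50 and 6.32 in the LMPP arrays, against 6.09 and 6.33 in the HSC arrays, and Epor, the erythropoietin receptor, at 6.15 and 6.23 in the LMPP arrays, against 6.26 and 6.09 in the HSC arrays. Klf1, the red cell factor, was at 6.08 and 5.39 in the LMPP arrays, against 5.999 and 6.88 in the HSC arrays, with LMPP replicate 1 level with HSC replicate 1. The count of 11 became 7 without HSC replicate 1, 10 without HSC replicate 2, and 7 without either LMPP array. The call of Rhag was lost without LMPP replicate 2 (adjusted p up to 0.0528).

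Genes of granulocytes and monocytes went both ways. Of 47 measured granule and myeloid progenitor genes, 5 were called higher (10.6%, against 1.23% of all genes) and 10 lower (21.3%, against 1.71%), with a median of -0.04. Without LMPP replicate 2 the lower count was 6. Genes of primary granules fell: Elane, neutrophil elastase, was at 5.13 and 5.26 in the LMPP arrays, against 8.31 and 8.89 in the HSC arrays, 10.6-fold lower (adjusted p = 9.2e-06), Ctsg, cathepsin G, was at 8.79 and 8.45 in the LMPP arrays, against 10.46 and 10.89 in the HSC arrays, 4.16-fold lower (adjusted p = 0.000646), and Prtn3, proteinase 3, was at 7.48 and 7.46 in the LMPP arrays, against 8.49 and 8.86 in the HSC arrays, 2.30-fold lower (adjusted p = 0.00146). Mpo, myeloperoxidase, stayed bright in both populations at 10.46 and 10.64 in the LMPP arrays, against 11.75 and 11.36 in the HSC arrays and was 2.00-fold lower (adjusted p = 0.0425). Ms4a3, a membrane protein of granulocyte and monocyte progenitors, was at 4.98 and 4.91 in the LMPP arrays, against 9.34 and 10.13 in the HSC arrays, 27.7-fold lower (adjusted p = 1.81e-06). Secondary granule genes were in or near the background range in both populations, Ltf (lactoferrin) at 4.62 and 4.62 in the LMPP arrays, against 4.40 and 4.62 in the HSC arrays and Ngp at 4.90 and 4.64 in the LMPP arrays, against 4.52 and 4.75 in the HSC arrays. The genes that rose were Wfdc17, Kynu and the surface receptors Cd33, a sialic acid lectin (4.10-fold, adjusted p = 0.00147), Ly86, a partner of a Toll-like receptor relative (3.00-fold, adjusted p = 0.000417), and Clec12a (2.55-fold, adjusted p = 0.0265). The factors Spi1 (PU.1) and Cebpa, which establish myeloid fate, were not called. Spi1 was at 7.46 and 7.79 in the LMPP arrays, against 7.68 and 7.26 in the HSC arrays, and Cebpa at 7.91 and 7.90 in the LMPP arrays, against 7.53 and 7.75 in the HSC arrays. The calls of Mpo and Clec12a were lost without HSC replicate 1 or either LMPP array (adjusted p up to 0.238). The difference in Clec12a was 0.86 without HSC replicate 1, against 1.35 with all arrays.

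Mast cell genes moved too, and over all genes 1.71% were lower and 1.23% higher. Of 21 measured mast cell and basophil genes 6 were called lower (28.6%) and 0 higher, and the lower count was 3 without HSC replicate 1. Cpa3, carboxypeptidase A3 of mast cell granules, was at 5.08 and 4.92 in the LMPP arrays, against 9.94 and 10.28 in the HSC arrays, 34.6-fold lower (adjusted p = 1.81e-06). Slc18a2, the transporter that loads amines into granules, was at 6.14 and 6.16 in the LMPP arrays, against 9.24 and 8.58 in the HSC arrays, 6.78-fold lower (adjusted p = 3.7e-05). Both LMPP arrays lay far below both HSC arrays, Cpa3 in the background range. Rab44, Ms4a2 (a chain of the IgE receptor), Hdc (histidine decarboxylase) and Gata2 fell by 1.12, 1.07, 0.74 and 0.70 on the log2 scale. Ms4a2 lay in the background range on all 4 arrays, at 4.26 and 4.31 in LMPP, against 5.57 and 5.15 in HSC. The mast cell proteases Mcpt4 and Cma1 were in the background range on all 4 arrays, Mcpt4 at 4.30 and 4.10 in the LMPP arrays, against 4.01 and 4.15 in the HSC arrays. The call of Ms4a2 was lost without HSC replicate 1 or either LMPP array (adjusted p up to 0.0615), and the call of Hdc was lost without either HSC array or LMPP replicate 2 (adjusted p up to 0.198). The call of Gata2 was lost without HSC replicate 1 or LMPP replicate 1 (adjusted p up to 0.115). The difference in Hdc was -0.46 without LMPP replicate 2, against -0.74 with all arrays.

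**Figure D4:**
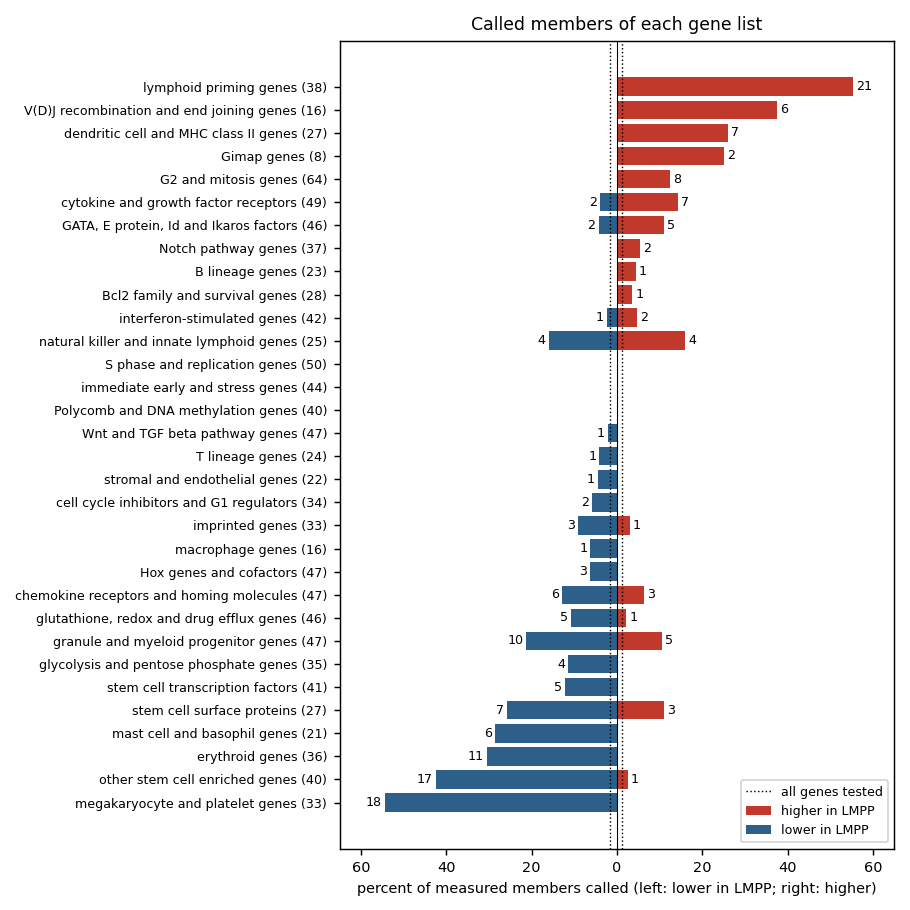
Share of the measured members of each of the 32 gene lists called higher (red, right) or lower (blue, left) in LMPP, in percent, with the number of called members at the bar and of measured members in brackets. Dotted lines mark the shares over all genes (1.23% higher, 1.71% lower); lymphoid priming genes reach 55.3% higher and megakaryocyte and platelet genes 54.5% lower.

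Genes associated with stem cells were called unevenly. Of 27 measured stem cell surface proteins 7 (25.9%) were lower and 3 higher, of 41 transcription factors 5 (12.2%) were lower and 0 higher, and of 40 other stem cell enriched genes 17 (42.5%) were lower and 1 higher. Over all genes 1.71% were lower and 1.23% higher. The medians of these lists were -0.12, -0.03 and -0.50, against 0.03 over all genes. With 1 of the 4 arrays left out, the lower counts lay between 3 and 5 for the surface proteins, between 1 and 5 for the factors and between 9 and 16 for the other genes. The surface count of 7 became 3 without HSC replicate 1 or LMPP replicate 2 and 4 without LMPP replicate 1, the factor count became 1 without any of these 3 arrays, and the count of 17 became 10 without LMPP replicate 1 and 9 without LMPP replicate 2. Without LMPP replicate 2 the surface proteins held 1 higher call. Among the surface proteins Tek, the angiopoietin receptor, was at 4.81 and 4.76 in the LMPP arrays, against 8.01 and 6.72 in the HSC arrays, 5.99-fold lower (adjusted p = 0.00124); without HSC replicate 1 its difference was -1.94 (adjusted p = 0.000216). Esam and Itga2b (CD41), used to enrich stem cells, fell by 0.66 and 0.61 on the log2 scale. Cd34 was at 11.08 and 11.24 in the LMPP arrays, against 10.08 and 10.08 in the HSC arrays, 2.11-fold higher (adjusted p = 0.0068), and Cd27, a TNF receptor family member, rose by 0.82 on the log2 scale. Alcam, an adhesion molecule, rose by 1.04. The call of Esam was lost without any of the 4 arrays (adjusted p up to 0.185), and the calls of Itga2b and Cd27 were lost without HSC replicate 1 or LMPP replicate 2 (adjusted p up to 0.144). The call of Cd34 was lost without LMPP replicate 2 (adjusted p up to 0.0624).

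Of the transcription factors, Meis1, a Hox partner that stem cells need, was at 9.12 and 9.41 in the LMPP arrays, against 10.39 and 9.79 in the HSC arrays (difference -0.82, adjusted p = 0.0395), and Ndn, an imprinted growth suppressor, was at 5.89 and 5.79 in the LMPP arrays, against 6.65 and 7.75 in the HSC arrays (difference -1.36, adjusted p = 0.0275). Hoxb5, Gata2 and Gfi1b made up the 5. Hoxb5 lay in or close to the background range on all 4 arrays, at 5.18 and 4.65 in LMPP, against 5.73 and 5.63 in HSC. Each of the 5 calls was lost in at least 1 fit that left out an array. Hlf, a factor used to mark stem cells, was at 8.55 and 9.34 in the LMPP arrays, against 8.91 and 8.32 in the HSC arrays, and its highest array was LMPP replicate 2 (95% interval of the difference -0.20 to 0.86). Mecom (Evi1) depended on the probe set: 10497608, used in the gene table, was at 6.90 and 7.15 in the LMPP arrays, against 7.02 and 7.09 in the HSC arrays, and 10497590 at 6.09 and 6.62 in the LMPP arrays, against 7.78 and 7.09 in the HSC arrays; only 10497590 was called lower (adjusted p over all probe sets 0.0384). Over all genes 1.71% were lower and 1.23% higher, the background for the Hox count that follows. Of 47 measured Hox genes and cofactors 3 were lower (Meis1, Hoxb5 and Pbx3) and 0 higher, with at most 1 lower when any 1 array was left out; Hoxa9, a driver of progenitor growth, was at 7.56 and 7.47 in the LMPP arrays, against 7.06 and 7.22 in the HSC arrays. The calls of Meis1 and Gfi1b were lost without HSC replicate 1 or either LMPP array (adjusted p up to 0.243), and the call of Ndn was lost without either LMPP array (adjusted p up to 0.139). The call of Hoxb5 was lost without either HSC array or LMPP replicate 2 (adjusted p up to 0.145), and the call of Gata2 was lost without HSC replicate 1 or LMPP replicate 1 (adjusted p up to 0.115). The call of Pbx3 was lost without any of the 4 arrays (adjusted p up to 0.152). The difference in Meis1 was -0.52 without HSC replicate 1, against -0.82 with all arrays. The difference in Ndn was -0.81 without HSC replicate 2, against -1.36 with all arrays. The difference in Hoxb5 was -0.50 without LMPP replicate 2, against -0.76 with all arrays. Like Hoxb5, Pbx3 lay in or close to the background range on all 4 arrays, at 5.18 and 5.06 in LMPP, against 5.76 and 5.78 in HSC.

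Many of the falls lay in genes with other roles. Plxdc2, a plexin domain receptor, was at 6.42 and 6.71 in the LMPP arrays, against 9.78 and 9.62 in the HSC arrays, 8.79-fold lower (adjusted p = 3.65e-05). Apoe, apolipoprotein E, was at 7.93 and 7.97 in the LMPP arrays, against 10.47 and 10.17 in the HSC arrays, 5.17-fold lower (adjusted p = 4.66e-06). Gstm5, a glutathione transferase, was at 7.83 and 7.19 in the LMPP arrays, against 9.86 and 9.80 in the HSC arrays, 4.99-fold lower (adjusted p = 0.000958). Both LMPP arrays lay below both HSC arrays in all 3 genes. Abcg2, the pump behind the side population of dye-excluding stem cells, was at 7.59 and 7.79 in the LMPP arrays, against 9.01 and 8.86 in the HSC arrays, 2.38-fold lower (adjusted p = 0.000702). Aldh1a1, which oxidises retinal, was at 5.59 and 5.46 in the LMPP arrays, against 7.996 and 6.58 in the HSC arrays (adjusted p = 0.019), and without HSC replicate 1 its difference was -1.05 (adjusted p = 0.0108). Dach1, a nuclear cofactor, was at 4.99 and 5.11 in the LMPP arrays, against 8.50 and 7.85 in the HSC arrays, 8.75-fold lower (adjusted p = 7.79e-06), and Prkg1, a cyclic GMP-dependent kinase, was at 5.42 and 5.68 in the LMPP arrays, against 8.22 and 8.27 in the HSC arrays, 6.46-fold lower (adjusted p = 2.4e-06). Adgrl2, an adhesion G protein-coupled receptor, had 8 probe sets, all lower in LMPP and 7 of them called. Vldlr, a lipoprotein receptor of the stem cell list, went the other way, with a difference of 0.95 (adjusted p = 0.0112). The call of Aldh1a1 was lost without either LMPP array (adjusted p up to 0.113), and the call of Vldlr was lost without HSC replicate 2 or LMPP replicate 2 (adjusted p up to 0.0928).

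Of 49 measured cytokine and growth factor receptors 7 were higher (14.3%, against 1.23% of all genes) and 2 lower (4.08%, against 1.71%). The higher count was 4 without HSC replicate 2 and 3 without LMPP replicate 2, and the lower count was 5 without HSC replicate 2. Beside Flt3 and Il7r, Il18r1 rose, 1 of the 2 chains of the interleukin 18 receptor. The other chain, Il18rap, rose too but is on the natural killer list and not among the 7. Il18rap was at 8.51 and 8.65 in the LMPP arrays, against 6.39 and 6.77 in the HSC arrays, a difference of 2.002 (adjusted p = 0.000123), and Il18r1 at 7.18 and 7.64 in the LMPP arrays, against 6.16 and 6.55 in the HSC arrays, 2.08-fold higher (adjusted p = 0.0327). Il10ra, Igf2r, Il4ra and Ifnar2 rose by between 0.62 and 0.88 on the log2 scale, and Tgfbr3, the TGF beta coreceptor, fell by 1.54. Of 47 chemokine receptors and homing molecules 3 were higher (6.38%) and 6 lower (12.8%). The lower count was 3 without LMPP replicate 2. Leaving out LMPP replicate 1 gave 3 higher and 2 lower, which turns the order of the counts. Cxcr4, which holds progenitors in marrow, was at 10.93 and 11.28 in the LMPP arrays, against 10.15 and 10.14 in the HSC arrays (adjusted p = 0.00619). S1pr1, a receptor for exit into blood, was at 6.52 and 6.35 in the LMPP arrays, against 7.73 and 7.73 in the HSC arrays (adjusted p = 0.000233), and Itga6, a laminin-binding integrin chain, at 7.01 and 7.30 in the LMPP arrays, against 8.71 and 8.27 in the HSC arrays (adjusted p = 0.00362). Csf1r and Csf3r, receptors of monocyte and neutrophil growth factors, were not called, with 95% intervals of 0.07 to 0.60 and -0.09 to 0.69. The call of Il18r1 was lost without HSC replicate 1 or LMPP replicate 2 (adjusted p up to 0.199), and the calls of Igf2r and Il4ra were lost without either HSC array or LMPP replicate 2 (adjusted p up to 0.23). The call of Ifnar2 was lost without HSC replicate 2 or either LMPP array (adjusted p up to 0.15), and the call of Cxcr4 was lost without LMPP replicate 2 (adjusted p up to 0.0551).

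Natural killer and innate lymphoid genes were mixed, with 4 of 25 higher and 4 lower, against 1.23% and 1.71% of all genes. There were 2 and 2 without HSC replicate 1, and leaving out an LMPP array gave 3 and 2 (replicate 1) or 3 and 1 (replicate 2). Besides the interleukin 18 receptor chains, Klrd1 (CD94) rose 2.98-fold and Nfil3, a factor of innate lymphoid development, 1.94-fold (limma adjusted p = 0.00619 and 0.00435). Klrd1 was at 6.24 and 5.59 in LMPP, against 4.22 and 4.46 in HSC, in the background range on all arrays but LMPP replicate 1. Nkg7, a granule protein of cytotoxic cells, was at 8.20 and 8.61 in the LMPP arrays, against 9.81 and 10.02 in the HSC arrays, 2.84-fold lower (adjusted p = 0.00113). Zbtb16, Ccl5 and Fcer1g were the other falls. The call of Klrd1 was lost without HSC replicate 1 or LMPP replicate 1 (adjusted p up to 0.055), and the call of Zbtb16 was lost without HSC replicate 1 or either LMPP array (adjusted p up to 0.154). The call of Ccl5 was lost without LMPP replicate 2 (adjusted p up to 0.051), and the call of Fcer1g was lost without any of the 4 arrays (adjusted p up to 0.211). The difference in Zbtb16 was -0.66 without HSC replicate 1, against -1.10 with all arrays.

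Of 64 measured G2 and mitosis genes 8 were called higher (12.5%, against 1.23% of all genes) and 0 lower. Of their differences 62 were positive, and the median was 0.36. Kif23, which builds the midbody at division, was at 10.16 and 10.45 in the LMPP arrays, against 9.28 and 8.96 in the HSC arrays, 2.28-fold higher (adjusted p = 0.00334), and Ect2, its partner in cytokinesis, was at 9.20 and 9.48 in the LMPP arrays, against 8.38 and 8.31 in the HSC arrays, 1.99-fold higher (adjusted p = 0.00567). Mki67, the Ki-67 antigen, was at 10.51 and 10.71 in the LMPP arrays, against 10.47 and 10.24 in the HSC arrays and bright in both populations. The count is sensitive to scaling and to arrays: 18 after a further quantile normalization, 2 after centring arrays on their medians, 4 and 3 without HSC replicate 1 and 2, and 5 and 1 without LMPP replicate 1 and 2. Of 50 S phase and replication genes 0 were called in limma; at an unadjusted p under 0.05, 0 were higher and 5 lower, and the median was -0.06. Of 34 cell cycle inhibitors and G1 regulators 2 were lower (5.88%, against 1.71% of all genes), Gadd45a and Ndn. Cdkn1c (p57), an inhibitor linked to stem cell rest, was at 6.10 and 6.06 in the LMPP arrays, against 6.29 and 6.59 in the HSC arrays (adjusted p = 0.356). The call of Ect2 was lost without LMPP replicate 2 (adjusted p up to 0.0551), and the call of Gadd45a was lost without LMPP replicate 1 (adjusted p up to 0.0656).

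Metabolic genes changed in small numbers. Of 46 glutathione, redox and drug efflux genes 5 were lower (10.9%) and 1 higher (2.17%), with a median of -0.23. Over all genes 1.71% were lower and 1.23% higher. The 5 were Gstm5, Mt2, Aldh1a1, Mt1 and Abcg2, and Mgst2, a microsomal glutathione transferase, rose 2.77-fold (adjusted p = 0.00105). Of 35 glycolysis and pentose phosphate genes 4 were lower (11.4%) and 0 higher. Ldha, lactate dehydrogenase A, was at 9.38 and 9.40 in the LMPP arrays, against 10.02 and 10.21 in the HSC arrays, and Slc16a1, a lactate transporter, at 6.002 and 6.57 in the LMPP arrays, against 7.51 and 7.14 in the HSC arrays. Pdk3, a kinase that inhibits pyruvate dehydrogenase, and Pfkp, a phosphofructokinase, fell by 1.22 and 0.69 on the log2 scale. All 4 calls were lost without LMPP replicate 1. The call of Ldha was lost without either LMPP array (adjusted p up to 0.0611), and the call of Slc16a1 was lost without HSC replicate 1 or LMPP replicate 1 (adjusted p up to 0.115). The call of Pdk3 was lost without LMPP replicate 1 (adjusted p up to 0.0611), and the call of Pfkp was lost without any of the 4 arrays (adjusted p up to 0.13).

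Several pathways gave few calls, and leaving out 1 array changed many of these counts. Over all genes 1.23% were higher and 1.71% lower, and the shares below are to be set against these. Of 33 imprinted genes 3 were lower (9.09%: Ndn, Grb10 and Sgce) and 1 higher (3.03%: Igf2r). Of 37 Notch pathway genes 2 were higher (5.41%: Dtx4 and Maml3) and 0 lower. Of 47 Wnt and TGF beta genes only Tgfbr3 was called, which was lower (2.13%). Of 28 Bcl2 family and survival genes 1 was higher (3.57%), Bcl2l11 (Bim), a trigger of cell death, by 0.69 on the log2 scale. Of 8 Gimap genes, GTPases of lymphocytes, 2 were higher (25.0%) and 0 lower. Gimap7 rose 2.47-fold (adjusted p = 0.00146) and Gimap6 by 0.62 on the log2 scale. Of 40 Polycomb and DNA methylation genes 0 were called in limma, with 2 higher and 2 lower at an unadjusted p under 0.05. Of 44 immediate early and stress genes, which respond to handling, 0 were called, with 7 higher and 4 lower at an unadjusted p under 0.05. Cd69, the member that moved most, was at 10.02 and 9.645 in the LMPP arrays, against 8.51 and 8.925 in the HSC arrays (limma adjusted p = 0.113). Fosb was at 7.67 and 7.73 in the LMPP arrays, against 9.23 and 8.04 in the HSC arrays, highest in HSC replicate 1. The calls of Grb10 and Sgce were lost without HSC replicate 1 or either LMPP array (adjusted p up to 0.225), and the call of Dtx4 was lost without HSC replicate 1 or LMPP replicate 1 (adjusted p up to 0.0686). The call of Maml3 was lost without either HSC array or LMPP replicate 1 (adjusted p up to 0.202), and the calls of Bcl2l11 and Gimap6 were lost without any of the 4 arrays (adjusted p up to 0.14). The difference in Sgce was -0.68 without HSC replicate 1, against -1.06 with all arrays.

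The microRNA genes gave 1 call in each direction among 300 measured, against 1.23% of all genes higher and 1.71% lower. They are shown with the seed, bases 2 to 8 of the mature strand, in capitals, because the seed sets which messages a microRNA can bind; sequences and positions are from RefSeq, build GRCm38.p6.
miR-107-3p, chr19:34820700-34820722, minus strand: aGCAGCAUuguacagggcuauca
miR-103-3p (Mir103-1), chr11:35782447-35782469, plus strand: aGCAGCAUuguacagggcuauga
miR-340-5p, chr11:50069720-50069741, plus strand: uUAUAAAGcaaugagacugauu
miR-340-3p, chr11:50069762-50069783, plus strand: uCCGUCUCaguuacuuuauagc
miR-107-3p and miR-103-3p share the seed GCAGCAU. Mir107 was at 6.51 and 6.51 in the LMPP arrays, against 7.60 and 7.34 in the HSC arrays, a difference of -0.96 (adjusted p = 0.00818). It lies in Pank1, a gene of coenzyme A synthesis, which was at 7.28 and 7.12 in the LMPP arrays, against 9.09 and 8.18 in the HSC arrays and also fell (adjusted p = 0.0286). Mir103-1 was at 4.79 and 4.93 in the LMPP arrays, against 4.58 and 4.81 in the HSC arrays and Mir103-2 at 7.94 and 8.92 in the LMPP arrays, against 9.14 and 8.61 in the HSC arrays, and neither was called. Mir340 was at 5.84 and 6.63 in the LMPP arrays, against 4.32 and 5.15 in the HSC arrays, a difference of 1.502 (adjusted p = 0.0452), while Rnf130, in which it lies, was at 11.31 and 11.38 in the LMPP arrays, against 11.23 and 11.24 in the HSC arrays. Whether these probe sets read the precursor, the host transcript or the mature strand was not tested. The calls of Mir107 and Pank1 were lost without HSC replicate 1 or either LMPP array (adjusted p up to 0.163), and the call of Mir340 was lost without HSC replicate 1 or LMPP replicate 2 (adjusted p up to 0.261).

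The 4 later populations place the changes along the path, as a description of means ± SD (n = 2, DN2 n = 1). Dntt was at 8.10 ± 0.306 in HSC, 11.99 ± 0.0181 in LMPP, 12.50 ± 0.0436 in CLP, 11.77 ± 0.161 in ETP, 11.49 in DN2 and 12.11 ± 0.0727 in DN3, so its level in LMPP was close to that of the later cells. Wfdc17 was at 5.97 ± 0.0349, 10.28 ± 0.294, 8.10 ± 0.0809, 5.12 ± 0.249, 4.34 and 4.76 ± 0.203 in the same order and was highest in LMPP. Sema3d was at 4.70 ± 0.288, 7.69 ± 0.308, 6.43 ± 0.0350, 7.11 ± 0.131, 4.43 and 4.63 ± 0.132, in the background range at DN2 and DN3. Some genes that fell in LMPP were high again in the thymus. Cpa3 was at 10.11 ± 0.238, 5.0 ± 0.110, 5.20 ± 0.539, 9.99 ± 0.322, 11.06 and 8.89 ± 0.0855, and Plxdc2 at 9.70 ± 0.115, 6.56 ± 0.199, 6.63 ± 0.0768, 7.31 ± 0.585, 9.67 and 9.55 ± 0.164. Pf4 stayed in the background range in CLP and in the thymic cells, at 4.97 ± 0.113, 5.17 ± 0.0853, 4.94 and 4.75 ± 0.0514.

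**Figure D5:**
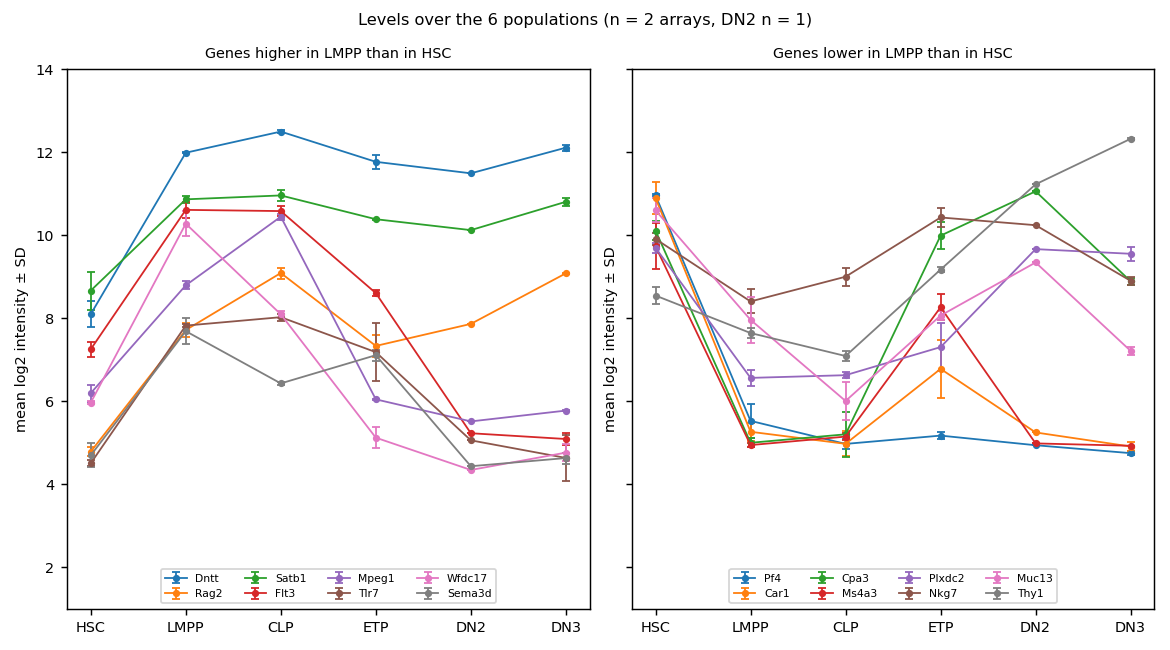
Mean log2 intensity ± SD (vertical axes; 2 arrays each, DN2 1 array with no error bar) over HSC, LMPP, CLP, ETP, DN2 and DN3. Among genes higher in LMPP than in HSC (left) Dntt and Satb1 stay high while Wfdc17 and Sema3d peak in LMPP; among genes lower in LMPP (right) Cpa3, Plxdc2 and Thy1 are high again in thymic cells and Pf4 is not.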

How the data were processed

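Biotin-labelled total RNA was read on 11 arrays. The authors deposited RMA values, per the submitters' processing notes. These are log2 intensities, as read from the deposited values, which ran from 2.07 to 13.8 with array medians between 6.01 and 6.12. Neither an RMA version nor a build is stated in the sources used here. The number of arrays limits the precision. Groups followed the sample titles.

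Of 35556 probe sets, 21789 had 1 gene symbol in the platform annotation, 1621 had several and 12146 none. Those with 1 symbol were used, symbols were updated through Entrez IDs for the 21698 found in RefSeq, and the probe set with the highest mean was kept for each of 19938 genes. Differences were tested with limma 3.58.1 (R 4.3.3) in 1 fit of 6 group means over the 11 arrays, with 5 residual and 5.39 prior degrees of freedom, two-sided, with Benjamini-Hochberg adjustment over all genes. Genes with an adjusted p under 0.05 count as called. Simulated data with known changes served to test the fit. The replicate numbers did not meet the condition for pairing, a correlation of deviations from the group means over 0.1 in every pair of populations: it was -0.258 between HSC and LMPP, below 0 between HSC and each other population, and between 0.0703 and 0.283 among the others. Alternatives were fits of fewer arrays, filters on dim genes, other scaling, probe set and variance choices, a replicate block and leaving out each array.

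Named genes are the 20 highest and 20 lowest called differences without overlap, up to 6 called members per list and direction or the member that moved most, a panel of 45 genes (41 measured) and called microRNAs. Olfactory and histone genes, antigen receptor segments and predicted genes were left out of the first. Not all are named, and genes outside the rule are said to be chosen later or illustrate a list. The members, the panel and the 32 lists were chosen with earlier results of these data known, and 5 further lists after the values were seen: sinusoidal endothelial genes, interferon-inducible p200 genes, complement regulators, NAIP and inflammatory caspase genes, and Toll-like receptors. Promoters and microRNAs come from RefSeq tables of GRCm38.p6.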

Additional observations from a re-analysis of the deposited data

How the results depend on the processing

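The 586 calls (246 higher, 340 lower) changed most with the arrays used. The 4 LMPP and HSC arrays alone gave 137 (59 higher, 78 lower) and the 6 marrow arrays 336 (152 higher, 184 lower). Leaving out 1 array gave between 310 and 622 calls, between 120 and 211 higher and between 165 and 411 lower. Array weights gave 161 higher genes. Each of the other alternatives kept all 3 counts within 1.5 times. A further quantile normalization gave 704 and centring on array medians 511, and 42.0% of calls were higher in the full fit, against 48.4% and 35.6% under these scalings. Not 1 of the 586 genes changed sign under any alternative fitted, but in many alternatives a sign could not change. Fits of 4 or 6 arrays, the filters, the variance choices, array weights and the replicate block left the differences as they were. Where the LMPP and HSC arrays of a gene do not overlap, leaving out 1 array cannot change its sign either. Of the 127 named genes that were called, 55 were called under every alternative in which they were tested and 66 without each of the 4 arrays, and 68 were no longer called with the 4 arrays alone. The replicate number as a block gave 566 calls (235 higher, 331 lower) and ended 9 of the 127. With the HSC numbers crossed, a pairing chosen after seeing the data, the block gave 722 calls (308 higher, 414 lower). The limits of depth are those of probe intensity: where 1 population lies in the range of olfactory genes, a fold is a lower bound.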

Other observations

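Other gene groups, chosen after their values were seen, are given as values. Complement regulators on the cell surface fell in part: Cd55, which dissolves the enzymes that drive the cascade, was at 4.99 and 4.68 in the LMPP arrays, against 8.76 and 8.73 in the HSC arrays, 15.0-fold lower (adjusted p = 3.23e-06), and Cd59a, which blocks the membrane pore, at 5.38 and 4.57 in the LMPP arrays, against 7.54 and 7.15 in the HSC arrays, 5.17-fold lower (adjusted p = 0.00169). Both calls stood without any 1 of the 4 arrays. The other 4 of the 6 genes measured, Cd59b, Cd46, Cd55b and Cr1l, were not called. Among 8 genes of NAIP proteins, which sense bacterial proteins, and inflammatory caspases, 5 were lower and 0 higher (against 1.71% of all genes lower). Naip5 was at 5.60 and 5.43 in the LMPP arrays, against 7.22 and 6.62 in the HSC arrays, 2.65-fold lower (adjusted p = 0.00162), and Casp12 at 5.05 and 5.47 in the LMPP arrays, against 6.24 and 6.43 in the HSC arrays (adjusted p = 0.00497). Naip2, Naip6 and Casp4 fell by 1.14, 1.18 and 0.74 on the log2 scale, and the NAIP genes are near-identical copies whose probe sets may read more than 1 of them. Leaving out HSC replicate 1 turned the count of 5 into 3, HSC replicate 2 into 4, LMPP replicate 1 into 3 and LMPP replicate 2 into 2. The call of Naip2 was lost without LMPP replicate 2 (adjusted p up to 0.0583), and the call of Naip6 was lost without HSC replicate 1 or either LMPP array (adjusted p up to 0.108). The call of Casp4 was lost without any of the 4 arrays (adjusted p up to 0.0982).

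The histone variants macroH2A.1 and macroH2A.2 rose together, Macroh2a1 at 11.46 and 11.81 in the LMPP arrays, against 10.51 and 10.22 in the HSC arrays (adjusted p = 0.00343) and Macroh2a2 at 7.78 and 7.86 in the LMPP arrays, against 6.50 and 6.59 in the HSC arrays (adjusted p = 0.00214). The lysophospholipid receptor genes P2ry10, P2ry10b and Gpr174 rose 3.19-fold, 2.11-fold and 2.94-fold (adjusted p = 0.000833, 0.0044 and 0.000536). Arpp21, a gene best known from neurons and thymocytes, was at 8.03 and 8.11 in the LMPP arrays, against 5.54 and 5.81 in the HSC arrays, and Gria2, a glutamate receptor subunit, at 6.03 and 6.67 in the LMPP arrays, against 3.81 and 4.07 in the HSC arrays, with adjusted p of 3.31e-06 and 7.47e-05. Asns, asparagine synthetase, was at 6.32 and 6.04 in the LMPP arrays, against 8.34 and 7.91 in the HSC arrays, 3.85-fold lower (adjusted p = 0.00063). Of 54 snoRNA genes 1 was higher and 4 lower, and of 59 Rab GTPase genes 0 were higher and 4 lower (Rab27b, Rab37, Rab38 and Rab44), against 1.23% of all genes higher and 1.71% lower. Among probe sets left out of the gene table, 4 of the 12146 without a symbol were higher and 8 lower, and of the 1621 with several symbols 10 were higher and 2 lower. Of 16 macrophage genes 1 was called, Vcam1, which was lower, while C1qa and Adgre1 were in or near the background range in all 4 arrays. The call of Rab27b was lost without HSC replicate 1 or either LMPP array (adjusted p up to 0.179), and the call of Rab37 was lost without LMPP replicate 1 (adjusted p up to 0.0528). The call of Vcam1 was lost without either LMPP array (adjusted p up to 0.138). The difference in Rab27b was -0.58 without HSC replicate 1, against -0.97 with all arrays. The difference in Vcam1 was -0.76 without HSC replicate 1, against -1.22 with all arrays.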
